A study of Homo sapiens with 48 samples.

Results

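The genes of polyamine metabolism were followed in a clone of HEK293, a line from human embryonic kidney, that carries a stable AT1R transgene (AT1R is the angiotensin II receptor of type 1, and angiotensin II is written AII). The 10 genes were chosen by symbol, with earlier results of these data known. They were ODC1, AMD1, SRM and SMS of synthesis, SAT1, SMOX and PAOX of catabolism, and OAZ1, OAZ2 and AZIN1, which control ODC1. All 10 were among the 60610 genes of the deposited count table, and all 10 were among the 19626 genes that had enough counts to be tested.

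Polyamines are small, positively charged amines that bind nucleic acids and that growing cells need for translation and division. ODC1 makes putrescine from ornithine, AMD1 supplies the decarboxylated S-adenosylmethionine from which SRM and SMS take the groups that turn putrescine into spermidine and spermidine into spermine, and SAT1 acetylates spermidine and spermine for export or oxidation. Antizymes (OAZ1, OAZ2) bind the ODC1 protein and send it to the proteasome, antizyme inhibitor (AZIN1) binds antizyme instead, and ODC1 is a classical growth factor-responsive gene.

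The cells were obtained by cotransfection of an AT1R plasmid with a puromycin resistance plasmid, selection with losartan present, and limiting dilution, and per the study's methods 1 clone, chosen for its stronger response to AII, was used for sequencing. FCS was removed before stimulation. The medium then contained no stimulus (control), AII (1 nM), EGF (10 µg/L) or AII + EGF for 6 h or 24 h, and oligo(dT)-enriched RNA was sequenced. By the labels, each of the 8 groups has 6 libraries, more than the paper states for each condition. Nothing says that they came from separate cultures, so p-values measure the spread between these libraries, which may be technical. In bulk RNA, fewer expressing cells and less RNA per cell cannot be told apart.

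Of the 48 libraries, 38 were used: 4 control, 5 AII, 3 EGF and 4 AII + EGF libraries at 6 h, and 6, 5, 5 and 6 at 24 h. Of the 10 left out, 8 formed 4 near-identical pairs whose counts differed by less than independent sampling gives, with a chi-square per degree of freedom of 0.397 to 0.505 against 2.02 for the closest other pair of 1128. In 3 of these pairs the members carried different labels (control 6 h with EGF 24 h, control 6 h with AII 24 h, and EGF 6 h with AII + EGF 6 h). The other two left out were AII 6 h replicate 6 and AII + EGF 6 h replicate 6. On an axis through the 1492 genes called between these groups, with the AII 6 h mean at 0 and the AII + EGF 6 h mean at 1, the library labelled AII lay at 0.858 and the library labelled AII + EGF at -0.00675. Calls of the 10 genes that change when all 48 libraries enter are given beside the result. Totals of the libraries used were 17.8 to 29.96 M counts, 22.3 ± 3.02 M on average (SD, n = 38). Of the markers of the line, NEFL, NEFM and VIM were at 170.0 CPM (counts scaled to library size) or more in every library, PAX2 only at 0.274 to 3.9 CPM, and AGTR1, which the transgene encodes, at 3962 to 15222 CPM. AGTR1 itself rose under AII + EGF, from 4271 ± 239 to 10041 ± 436 CPM at 6 h (log2 change 1.23 ± 0.17, adjusted p = 4.93e-07) and from 7363 ± 1719 to 13066 ± 2579 CPM at 24 h (0.83 ± 0.14, adjusted p = 5.28e-05). Its part in the results was not tested. PTPRC, ALB and PECAM1, which mark blood, liver and endothelium, stayed at or below 0.399 CPM, and MYH11 of smooth muscle at or below 2.16 CPM.

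Promoters are shown for ODC1, SRM, SMS and SAT1, whose log2 change under AII + EGF against control at 6 h was 0.56 or more. RefSeq promoter windows on GRCh38.p14, 250 bases before to 50 bases after a start, were used for 7 of the 10 genes, with 10 windows in all. Promoters of AZIN1, SMOX and PAOX were not searched. The 10 windows were searched on both strands for CACGTG (the E-box that MYC and related factors bind), TGACTCA (AP-1), TGACGTCA (CREB), CCGGAAG (ETS) and GCGGGGGCG (EGR). Positions count from the start, with no position 0, and capitals mark the motifs, the EGR motif in the SRM and SMS lines being on the opposite strand.
ODC1, chr2:10447989-10448072, minus strand, position -60 to 24 around the more downstream RefSeq start: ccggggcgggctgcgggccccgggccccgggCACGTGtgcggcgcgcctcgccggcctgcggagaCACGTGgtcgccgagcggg
SRM, chr1:11060019-11060268, minus strand, position -250 to -1: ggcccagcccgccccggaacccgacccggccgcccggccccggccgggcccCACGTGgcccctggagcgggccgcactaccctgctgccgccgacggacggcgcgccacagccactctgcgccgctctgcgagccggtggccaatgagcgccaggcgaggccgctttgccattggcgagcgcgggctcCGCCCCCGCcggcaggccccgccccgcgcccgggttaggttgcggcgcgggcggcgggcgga
SMS, chrX:21940459-21940708, plus strand, position -250 to -1: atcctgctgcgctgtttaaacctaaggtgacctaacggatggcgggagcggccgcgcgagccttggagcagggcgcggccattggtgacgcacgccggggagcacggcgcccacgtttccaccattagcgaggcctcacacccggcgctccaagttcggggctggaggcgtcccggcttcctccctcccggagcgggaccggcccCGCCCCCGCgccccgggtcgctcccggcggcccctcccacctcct
SAT1, chrX:23782923-23783172, plus strand, position -250 to -1: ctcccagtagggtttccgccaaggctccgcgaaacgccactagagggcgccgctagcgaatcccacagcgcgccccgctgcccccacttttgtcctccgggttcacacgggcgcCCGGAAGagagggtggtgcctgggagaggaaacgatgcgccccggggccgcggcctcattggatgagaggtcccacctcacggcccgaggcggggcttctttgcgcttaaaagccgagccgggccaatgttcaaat

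CACGTG stood at positions -29 and 6 of ODC1 and at -199 of SRM, and 7.26% of the 35116 RefSeq promoter windows hold it. All ODC1 positions count from its more downstream RefSeq start, and all its matches lay in the window of that start (chr2:10447963-10448262). No motif was found around another ODC1 start. The ODC1 matches lie inside the annotated span of the gene, which reaches upstream to 10448327. GCGGGGGCG stood in ODC1 (-201, outside the stretch shown), SRM (-62), SMS (-45) and AMD1 (-44), against 5.07% of all windows. SAT1 held CCGGAAG at -136 (10.3% of all windows) and OAZ2 held TGACTCA at -241 (4.95%), while TGACGTCA (1.85%) was in none of the 10 windows. A match describes letters only and no binding was measured.

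Per kilobase of exon, where levels of different genes can be set side by side, OAZ1 was the highest of the 10 in control 6 h cells with 176 CPM per kb. SMS (79.2), SRM (65.3), ODC1 (57.1) and AMD1 (43.7 CPM per kb), the synthesis genes, came next. SAT1 (27.3), AZIN1 (23.3) and OAZ2 (14.9 CPM per kb) followed, and the oxidase genes SMOX (2.05) and PAOX (0.161 CPM per kb) were the lowest. Exon lengths were union lengths of GENCODE gene models, so long untranslated ends such as those of AMD1 and OAZ2 lower this measure. All values from here on are CPM per gene, to be compared between groups of the same gene.

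A gene was called where 3 conditions held: an adjusted p under 0.01 (edgeR quasi-likelihood test, Benjamini-Hochberg over 19626 genes), 1.5-fold or more, and more than 5 CPM on average in the stimulated libraries (rise) or in the control libraries (fall). PAOX never reached 5 CPM and could therefore not be called in any comparison. Where libraries of 2 groups are said not to overlap, this only describes their values. The share of all tested genes that separate likewise was not counted, and full separation is easily reached with few libraries per group.

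ODC1 (ENSG00000115758; chromosome 2, 10439968 to 10448327, GRCh38.p14) showed the largest change of the 10 genes under AII + EGF at 6 h. The control 6 h libraries gave 207, 183, 176 and 189 CPM, and the AII 6 h libraries 178, 185, 224, 223 and 219 CPM. Under EGF the values were 289, 298 and 339 CPM, and under AII + EGF 365, 382, 429 and 491 CPM. The lowest EGF library lay above every control and AII library, and the lowest AII + EGF library above every EGF library, while control and AII overlapped. The means were 189 ± 13.4, 206 ± 22.4, 309 ± 26.5 and 416 ± 56.3 CPM (SD, n = 4, 5, 3 and 4). Under AII + EGF, ODC1 rose 2.20-fold over control (log2 change 1.14 ± 0.15 SE, adjusted p = 1.61e-07), and with all 48 libraries the log2 change was 1.12. Within the title runs (sets of consecutive sample titles that pass through the treatments, not stated to be batches) that hold both groups, AII + EGF was 2.20 and 2.79 times the control. Each ratio rests on 1 AII + EGF library, against 2 control libraries in the first run and 1 in the second. Title run 1 held replicates 1 and 2 of AII 6 h and of AII + EGF 6 h, but no control or EGF library that was used. Control 6 h replicate 6, of title run 7, had no used stimulated library in its run. Stimulus and title run are therefore partly mixed in the 6 h comparisons of the main fit. EGF alone raised ODC1 1.63-fold (log2 change 0.71 ± 0.16, adjusted p = 0.00367), and AII alone gave 0.12 ± 0.14 (adjusted p = 0.802, 95% interval -0.17 to 0.41). The EGF call rests on few libraries: it was lost without EGF 6 h replicate 4 (0.73, adjusted p = 0.0129) or 5 (0.64, 0.0395), and without control 6 h replicate 4 (0.69, 0.0125), 5 (0.68, 0.0157) or 6 (0.69, 0.0176). It was also lost where only the near-identical pairs were left out and the libraries with doubtful labels stayed in (0.71, adjusted p = 0.101).

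**Figure D1:**
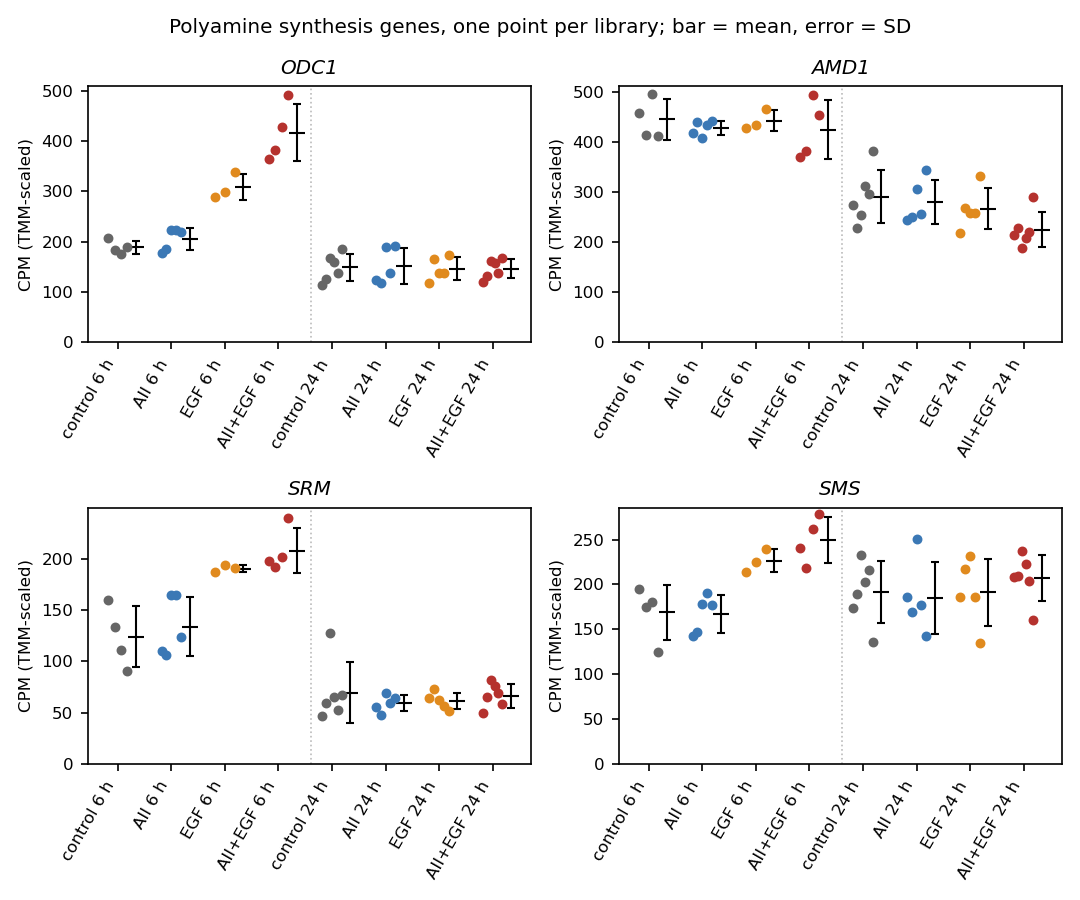
CPM (vertical axis, scaled with TMM factors) of ODC1, AMD1, SRM and SMS in the 8 groups (horizontal axis), with 1 point per library and the mean ± SD beside the points. At 6 h ODC1, SRM and SMS of all EGF and AII + EGF libraries lie above all control libraries, at 24 h the groups overlap, and AMD1 is lower at 24 h than at 6 h.

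At 24 h the ODC1 difference was no longer seen. Control 24 h ranged from 115 to 186 CPM with a median of 149, AII gave 124, 118, 190.5, 138 and 192 CPM, EGF gave 117, 167, 139, 137 and 174 CPM, and AII + EGF ranged from 120.4 to 169 CPM with a median of 148. The 4 groups overlapped throughout, and their means lay between 146 ± 19.2 and 152 ± 36.2 CPM. The log2 change under AII + EGF was -0.03 ± 0.12 with a 95% interval of -0.28 to 0.22 (adjusted p = 0.917). The AII + EGF response was 1.17 ± 0.20 lower at 24 h than at 6 h on the log2 scale (-1.17, adjusted p = 1.83e-05), which was a call. The EGF response fell short of one (-0.73 ± 0.21, adjusted p = 0.0389). In order of their means, AII + EGF 6 h was followed by EGF 6 h, AII 6 h and control 6 h and then the 24 h groups. AII 6 h overlapped control 6 h, and control 6 h overlapped control 24 h (log2 difference of 24 h against 6 h -0.34 ± 0.14, adjusted p = 0.0493).

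SRM (ENSG00000116649; chromosome 1, 11054589 to 11060018), spermidine synthase, moved in the same direction as ODC1 at 6 h. Control 6 h libraries held 159.9, 134, 111 and 90.8 CPM and AII libraries 109.8, 106, 165, 164 and 124 CPM. EGF libraries held 187, 193 and 191 CPM and AII + EGF libraries 198, 192, 202 and 239.7 CPM. Each EGF and AII + EGF library was above each control and AII library, and the EGF and AII + EGF libraries overlapped each other. SRM rose 1.68-fold under AII + EGF (log2 change 0.75 ± 0.20, adjusted p = 0.00395), and EGF alone gave 0.62 ± 0.22 (adjusted p = 0.0868). Within title runs SRM under AII + EGF was 1.37 and 2.17 times the control, each from 1 AII + EGF library. The AII + EGF call was lost where only the near-identical pairs were left out (0.58, adjusted p = 0.0488), and without control 6 h replicate 5 (0.70, adjusted p = 0.0157) or 6 (0.63, 0.0279) or AII + EGF 6 h replicate 5 (0.67, 0.0176). With all 48 libraries SRM was called under EGF as well (0.81, adjusted p = 0.00272).

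At 24 h SRM had lower means in all groups, with 46.8 to 128 CPM in control (median 62.1), 55.2, 47.9, 69.1, 59.8 and 64.5 CPM under AII, 63.8, 72.7, 62.4, 56.6 and 51.7 CPM under EGF, and 49.5 to 81.6 CPM (median 67.1) under AII + EGF. All groups overlapped, and the control value of 128 CPM belonged to replicate 3, which stood apart from its group. The AII + EGF response differed from that at 6 h by -0.81 ± 0.26 (adjusted p = 0.0202). This became a call without control 24 h replicate 1 (-0.90, adjusted p = 0.00816) or control 6 h replicate 3 (-0.96, 0.00861).

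SMS (ENSG00000102172; chromosome X, 21940709 to 21994837), spermine synthase, reached the p threshold under AII + EGF at 6 h but not the fold threshold. Its control 6 h libraries had 195, 175, 181 and 124 CPM and its AII libraries 142, 148, 178, 190.1 and 178 CPM. EGF gave 214, 225 and 239.6 CPM and AII + EGF 240.2, 218, 262 and 278 CPM. As for SRM, every EGF and AII + EGF library exceeded every control library. The change under AII + EGF was 1.48-fold (log2 0.56 ± 0.16, adjusted p = 0.00566), and under EGF log2 0.42 ± 0.17 (adjusted p = 0.159). It passed 1.5-fold, and was called, without control 6 h replicate 3 (0.64, adjusted p = 0.00448) or 5 (0.60, 0.00841) or AII + EGF 6 h replicate 2 (0.62, 0.00494). At 24 h the means were 185 ± 39.8 to 207 ± 25.7 CPM and all groups overlapped. SMS was the lowest in replicate 6 of each of the 4 groups (136 CPM in control, 143 under AII, 134 under EGF and 160 under AII + EGF).

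AMD1 (ENSG00000123505; chromosome 6, 110814617 to 110895713), S-adenosylmethionine decarboxylase, differed from the other synthesis genes. At 6 h the control libraries had 458, 415, 497 and 412 CPM, and the AII + EGF libraries 370.4, 383, 495 and 454 CPM. AII gave 409 to 442 CPM and EGF 428 to 467 CPM, so that all 4 groups overlapped. The log2 change under AII + EGF was -0.07 ± 0.14 with a 95% interval of -0.34 to 0.21 (adjusted p = 0.752). At 24 h AMD1 ranged from 229 to 383 CPM (median 286) in control and from 188 to 291 CPM (median 218) under AII + EGF, a log2 difference of -0.37 ± 0.11 (adjusted p = 0.015) that was not called. AMD1 was the highest in replicate 6 of each 24 h group, the libraries with the lowest SMS.

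SAT1 (ENSG00000130066; chromosome X, 23783173 to 23786210), the acetyltransferase of polyamine breakdown, was the only one of the 10 genes called under AII + EGF at both times. At 6 h the control libraries held 79.6, 59.2, 70.1 and 61.8 CPM, the AII libraries 65.5, 67.7, 76.1, 69.6 and 71.8 CPM, and the EGF libraries 80.6, 81.7 and 93.5 CPM. The AII + EGF libraries held 122, 115, 119 and 119 CPM, above all others of that time. SAT1 rose 1.75-fold (log2 change 0.81 ± 0.19, adjusted p = 7.8e-04), while EGF alone gave 0.33 ± 0.20 (adjusted p = 0.409) and AII alone 0.05 ± 0.18 (adjusted p = 0.944). With all 48 libraries the AII + EGF change was 0.47 (adjusted p = 0.0251) and not called. Within title runs AII + EGF was 1.71 and 1.70 times the control, each from 1 AII + EGF library.

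At 24 h SAT1 ranged from 61.2 to 119 CPM (median 106) in control and from 99.0 to 193 CPM (median 168) under AII + EGF. AII gave 125, 111, 124, 113 and 65.2 CPM and EGF 147, 140.4, 162, 125 and 84.9 CPM. Replicate 6 was the lowest library in every group, and apart from its value of 99.0 CPM the AII + EGF libraries lay above all control libraries. SAT1 rose 1.65-fold under AII + EGF (log2 change 0.72 ± 0.15, adjusted p = 7.08e-04), and EGF gave 0.42 ± 0.16 (adjusted p = 0.176). With only control and AII + EGF 24 h in the fit the AII + EGF change was the same size (0.72) but was not called (adjusted p = 0.0143). Without the 4 replicate 6 libraries, a choice made after these values were seen, the changes were 0.75 (adjusted p = 1.3e-07) and 0.44 (adjusted p = 0.00311, under 1.5-fold). Within the 4 title runs at 24 h AII + EGF was 1.57, 1.83, 1.53 and 1.62 times the control, and the last of these was the run of the replicate 6 libraries. The ratios 1.53 and 1.62 each compare 1 library with 1 library. The AII + EGF response differed between the times by -0.09 ± 0.24 (adjusted p = 0.838, 95% interval -0.58 to 0.40). In order of means, SAT1 was the highest in AII + EGF 24 h (163 ± 33.1 CPM), then EGF 24 h (132 ± 29.3), AII + EGF 6 h (119 ± 2.88), AII 24 h (108 ± 24.6), control 24 h (98.5 ± 22.5), EGF 6 h (85.3 ± 7.18), AII 6 h (70.1 ± 4.07) and control 6 h (67.7 ± 9.2), and each neighbour in this order overlapped the next except EGF 6 h, whose libraries all lay above those of AII 6 h.

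**Figure D2:**
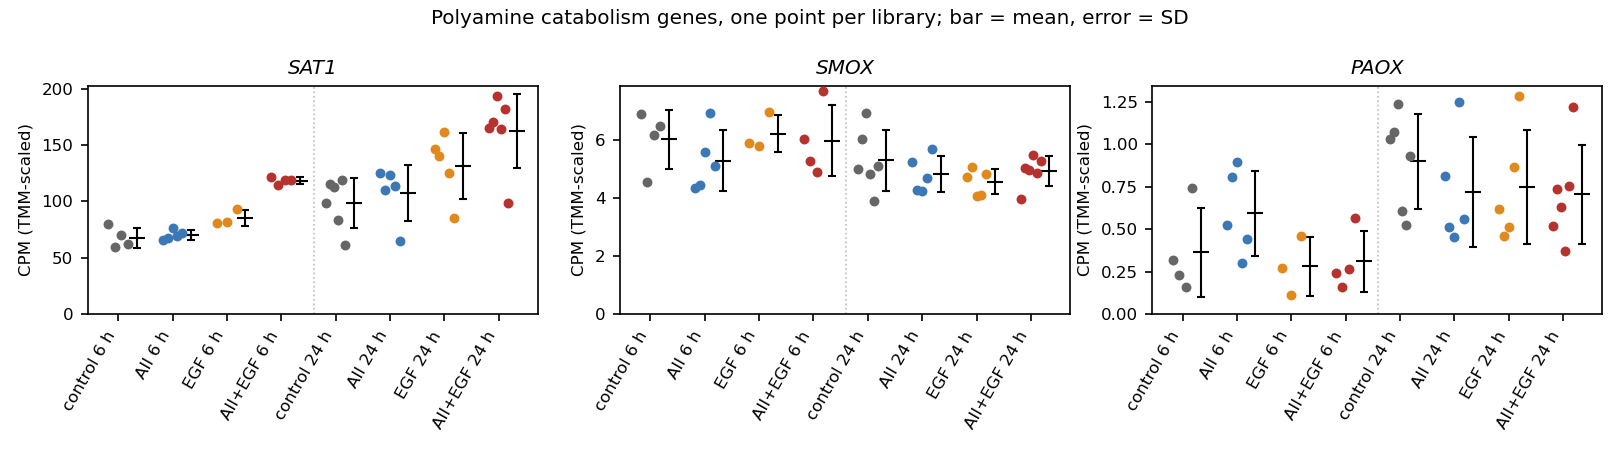
CPM (vertical axis, TMM-scaled) of SAT1, SMOX and PAOX in the 8 groups (horizontal axis), with 1 point per library and the mean ± SD beside the points. SAT1 under AII + EGF lies above control at 6 h and, except for the library at 99.0 CPM, at 24 h, while SMOX and PAOX stay below 8 and 1.3 CPM.

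The oxidase genes were low. SMOX (spermine oxidase, ENSG00000088826; chromosome 20, 4148828 to 4187727) had group means from 4.57 ± 0.442 to 6.24 ± 0.651 CPM, and its libraries overlapped in all comparisons with control. PAOX (the peroxisomal oxidase of acetylated polyamines, ENSG00000148832; chromosome 10, 133379262 to 133391694) had group means from 0.28 ± 0.172 to 0.902 ± 0.281 CPM. The 95% interval of the log2 change under AII + EGF at 6 h was -0.34 to 0.33 for SMOX, no wider than that of SRM or SAT1. For PAOX it was -1.32 to 0.81, which reaches past 1.5-fold in both directions, so that changes of PAOX beyond that size could also go undetected.

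Of the genes that control ODC1, OAZ2 (antizyme 2, ENSG00000180304; chromosome 15, 64687574 to 64703281) had an AII + EGF response that differed in sign between the 2 times. At 6 h control libraries had 131, 108, 124 and 94.4 CPM and AII + EGF libraries 77.8, 85.6, 75.5 and 98.7 CPM, with overlap at 1 library of each group. At 24 h control ranged from 90.6 to 141 CPM (median 114) and AII + EGF from 103 to 194 CPM (median 147). The log2 change was -0.44 ± 0.15 at 6 h (adjusted p = 0.0207) and 0.38 ± 0.12 at 24 h (adjusted p = 0.0248), and neither was called. The difference between these responses was called (0.81 ± 0.19, adjusted p = 0.00144). With all 48 libraries it was 0.87 (adjusted p = 4.65e-04). Within title runs OAZ2 under AII + EGF was 0.632 and 0.797 times the control at 6 h and 1.24, 1.40, 1.48 and 1.01 times at 24 h. The 6 h ratios each rest on 1 AII + EGF library, and 1.48 and 1.01 each compare 1 library with 1 library. AII alone and EGF alone gave OAZ2 log2 changes between -0.12 and 0.04 at both times.

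OAZ1 (antizyme 1, ENSG00000104904; chromosome 19, 2269486 to 2273488), the most abundant of the set, had group means from 503 ± 106 to 678 ± 71.3 CPM. At 24 h its highest mean was that under AII + EGF, with 508 to 824 CPM (median 630.3) against 392 to 821 CPM (median 497) in control, a log2 difference of 0.33 ± 0.14 (adjusted p = 0.0963). The control value of 821 CPM belonged to replicate 3, the library that was also high in SRM. AZIN1 (antizyme inhibitor 1, ENSG00000155096; chromosome 8, 102826302 to 102864200) had 155, 142, 153 and 121 CPM in control 6 h, and 165, 166 and 179 CPM under EGF at 6 h. These libraries did not overlap, with a log2 difference of 0.25 ± 0.12 (adjusted p = 0.246). At 24 h AZIN1 means lay between 98.4 ± 4.8 and 112 ± 15.1 CPM, and the AII + EGF libraries (91.8 to 105 CPM) overlapped control (96.5 to 138 CPM).

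**Figure D3:**
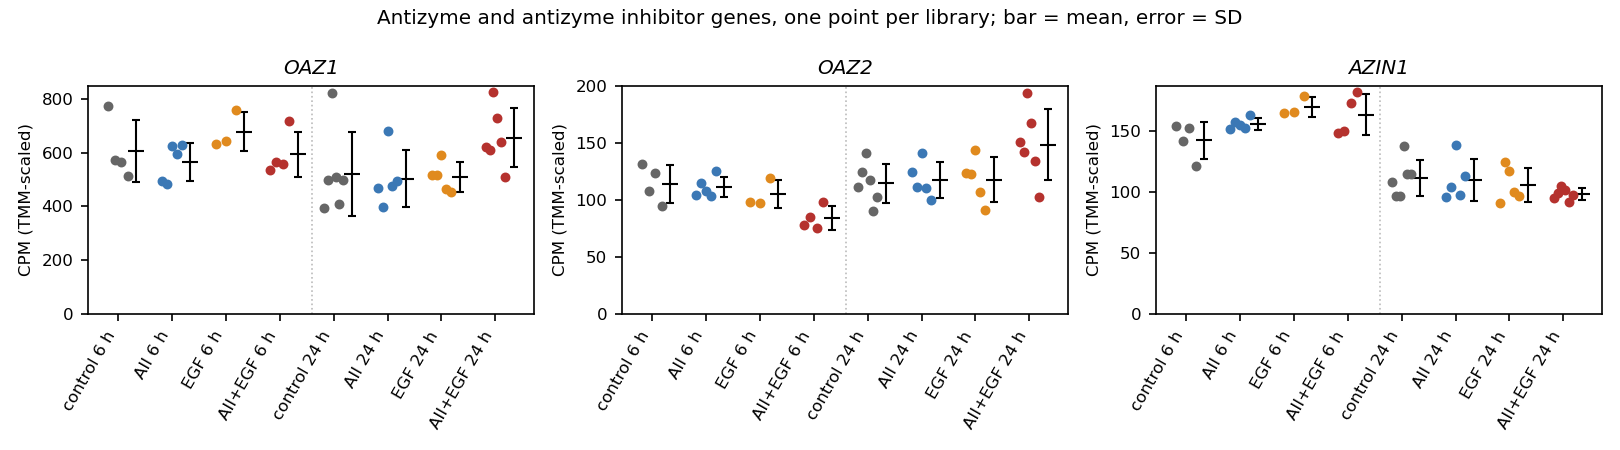
CPM (vertical axis, TMM-scaled) of OAZ1, OAZ2 and AZIN1 in the 8 groups (horizontal axis), with 1 point per library and the mean ± SD beside the points. OAZ2 under AII + EGF lies toward the lower side of control at 6 h (means 84.4 and 114 CPM) and toward the upper side at 24 h (149 and 115 CPM), and the libraries overlap at both times.

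Counted over the 10 genes, AII + EGF at 6 h called 3 (ODC1, SRM and SAT1, all higher), where 12% of all tested genes were called, 6.45% higher and 5.53% lower. EGF at 6 h called 1 (ODC1, higher), against 1.94% of all genes and 1.62% called higher. AII + EGF at 24 h called 1 (SAT1, higher), against 2.9% of all genes, 1.7% higher and 1.2% lower. With edgeR, 0 of the 10 were called under AII at 6 h (background 0.469%), AII at 24 h (background 0%) and EGF at 24 h (background 0.245%). At an unadjusted p under 0.05 these 3 comparisons gave 0, 0 and 1 of the 10 genes, and DESeq2 called 0 in each. The median log2 change of the 10 under AII + EGF at 6 h was 0.09, beside -0.03 over all tested genes, with ODC1, SRM, SMS and SAT1 at 0.56 or more and the others, AMD1 among them, between -0.44 and 0.20. The 3 comparisons of one time share their control libraries.

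**Figure D4:**
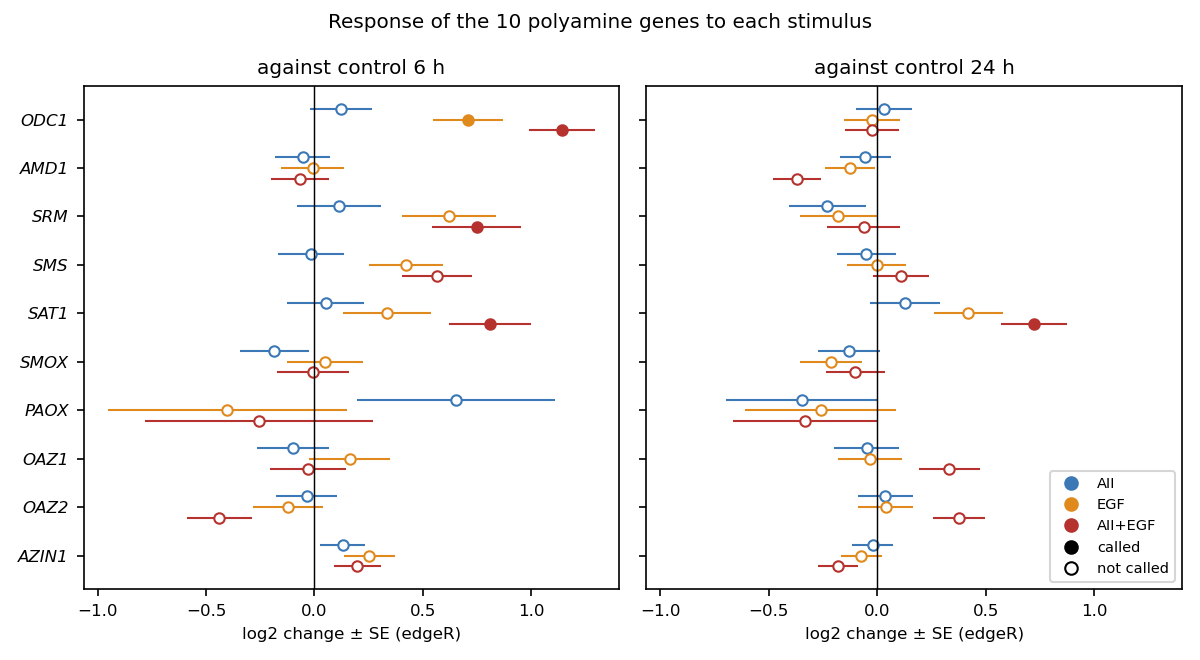
Log2 change ± SE (edgeR, horizontal axis) of the 10 genes (vertical axis) under AII, EGF and AII + EGF against control at 6 h (left) and 24 h (right). Filled points mark calls: ODC1 under EGF, and ODC1, SRM and SAT1 under AII + EGF at 6 h, and SAT1 under AII + EGF at 24 h.

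The comparison of AII + EGF with each stimulus alone asks whether the second stimulus adds to the first. Against AII at 6 h, ODC1 was 2.02-fold higher (log2 1.02 ± 0.14, adjusted p = 6.52e-07) and SAT1 1.69-fold higher (0.76 ± 0.18, adjusted p = 0.00115), so 2 of 10 were called, both higher, with 7.6% of all genes called and 4.21% called higher. SRM (0.64 ± 0.19, adjusted p = 0.0115) and SMS (1.49-fold, 0.58 ± 0.15, adjusted p = 0.00353) missed by 1 criterion each, their AII + EGF libraries lying above all AII libraries. Both were called without AII 6 h replicate 3 (0.72 and 0.60, adjusted p = 0.00747 and 0.00542) or replicate 4 (0.72 and 0.63, adjusted p = 0.00753 and 0.00332). SMS alone was also called without AII 6 h replicate 5 (0.60, adjusted p = 0.00561) or AII + EGF 6 h replicate 1 (0.60, 0.00679) or 2 (0.64, 0.00338). These differences are smaller where the AII 6 h and AII + EGF 6 h libraries with doubtful labels enter: with all 48 libraries ODC1 was at 0.58 (adjusted p = 0.0216) and SAT1 at 0.51 (adjusted p = 0.0434).

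Against EGF at 6 h, the AII + EGF libraries of ODC1 and SAT1 lay above all 3 EGF libraries. The log2 differences were 0.43 ± 0.16 for ODC1 (95% interval 0.10 to 0.76, adjusted p = 0.0873) and 0.48 ± 0.20 for SAT1 (0.06 to 0.89, adjusted p = 0.139), and edgeR called 0 of 10 (background 2.92%, 1.62% higher, 2 of 10 at an unadjusted p under 0.05, DESeq2 0). The interaction, by which the joint change exceeds the sum of both single changes on the log2 scale, was 0.31 ± 0.22 for ODC1 (adjusted p = 0.728) and 0.42 ± 0.27 for SAT1 (adjusted p = 0.669). It was called in 0 of 10 genes at 6 h (background 0.229%) and 0 of 10 at 24 h (background 0%), with 0 at an unadjusted p under 0.05 and 0 by DESeq2 at either time. At 24 h edgeR called 0 of 10 against EGF (background 0.0917%, 3 at an unadjusted p under 0.05, DESeq2 0) and 0 of 10 against AII (background 1.45%, 0.856% higher, 4 at an unadjusted p under 0.05). SAT1 against AII at 24 h (0.60 ± 0.16, adjusted p = 0.0128) was called by DESeq2 (0.62, adjusted p = 0.0038), with all 48 libraries (0.67, adjusted p = 0.0066) and without AII + EGF 24 h replicate 6 (0.71, adjusted p = 0.00113).

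The unstimulated cells of the 2 times also differed, but no title run holds libraries of both times, so that time and title run cannot be told apart. At 24 h against 6 h, AMD1 fell to 0.654 of its level (log2 -0.61 ± 0.12, adjusted p = 2.17e-04) and SRM to 0.562 (-0.83 ± 0.18, adjusted p = 7.05e-04), so 2 of 10 were called lower, with 6.73% of all genes called, 1.96% lower and 4.77% higher. All 6 control 24 h libraries of AMD1 lay below the 4 control 6 h libraries, while SRM overlapped through control 24 h replicate 3. AZIN1 fell short of the fold threshold at 0.782 of its 6 h level (-0.35 ± 0.10, adjusted p = 0.006). SAT1 had a log2 difference of 0.54 ± 0.17 (adjusted p = 0.0145), which became a call without control 24 h replicate 6 (0.64, adjusted p = 0.00232). PAOX had the largest log2 difference of the 10 (1.27 ± 0.42, adjusted p = 0.0182), but at means of only 0.363 CPM at 6 h and 0.902 CPM at 24 h and with overlapping libraries. The AMD1 call was lost without control 24 h replicate 2 (-0.55, adjusted p = 0.00103) or control 6 h replicate 5 (-0.55, adjusted p = 0.00208), where it fell below 1.5-fold. With all 48 libraries, neither AMD1 (-0.46, adjusted p = 0.00486) nor SRM (-0.62, adjusted p = 0.0194) was called, and with only the 2 control groups in the fit neither was either (-0.58, adjusted p = 0.0106, and -0.81, adjusted p = 0.0267). The 24 h against 6 h difference of the AII + EGF response was called in 2 of 10 genes (ODC1 lower and OAZ2 higher, background 11.6%, 6.08% lower and 5.5% higher). That of the EGF response was called in 0 (background 1.03%, 3 at an unadjusted p under 0.05, DESeq2 0), and that of the AII response in 0 (background 0.138%, 0 at an unadjusted p under 0.05, DESeq2 0).

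MYC, a transcription factor for which ODC1 is a textbook target through the CACGTG element, was looked at beside these genes. Its means at 6 h were 653 ± 74.8 CPM in control, 557 ± 69.5 under AII, 548 ± 11.4 under EGF and 481 ± 22.9 under AII + EGF, the reverse order of the ODC1 means. The AII libraries of MYC (478 to 638 CPM) overlapped those of every other 6 h group. The log2 change of MYC under AII + EGF at 6 h was -0.44 ± 0.13 (adjusted p = 0.00798, under 1.5-fold) and at 24 h 0.33 ± 0.11 (adjusted p = 0.0258). The difference between the times was called (0.77 ± 0.17, adjusted p = 6.51e-04). Any part of MYC in the ODC1 change was not tested.

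A further 36 genes around the pathway were read as a list, of which 30 could be tested. Under AII + EGF at 6 h 3 of the 30 were called higher and 2 lower, where 6.45% of all tested genes were called higher and 5.53% lower. At 24 h 1 was called higher and 1 lower, where 1.7% and 1.2% of all tested genes were. Their median log2 change was -0.05 at 6 h and 0.03 at 24 h, beside -0.03 and -0.02 over all tested genes. AII alone and EGF alone called 0 of the 30 at either time.

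Of the 3 rises at 6 h, those of ATP13A3 and SLC7A1 belong to uptake and precursor supply. ATP13A3, a polyamine transporter of the P5B ATPase family, had 117 to 136 CPM in control 6 h, 137 to 184 CPM under AII, 140.1 to 153 CPM under EGF and 242 to 267 CPM under AII + EGF. The AII + EGF libraries lay above all others (log2 change 1.02 ± 0.15, adjusted p = 5.78e-07). SLC7A1, the cationic amino acid transporter that takes up arginine and ornithine, had 243 to 302 CPM in control, 319 to 337 under AII, 364 to 390.3 under EGF and 387 to 420.0 CPM under AII + EGF (0.63 ± 0.10, adjusted p = 3.79e-06). For SLC7A1 each stimulus alone also lay above all control libraries, with log2 changes of 0.30 ± 0.09 under AII (adjusted p = 0.101) and 0.50 ± 0.11 under EGF (adjusted p = 0.0017, under 1.5-fold). The AII + EGF change of SLC7A1 fell below 1.5-fold, and its call was lost, with title runs as a block (0.57, adjusted p = 2.55e-05) and with all 48 libraries (0.49, adjusted p = 1.24e-04).

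EIF5A, the translation factor that carries hypusine made from spermidine, had 582 to 761 CPM in control 6 h and 822 to 1400.2 CPM under AII + EGF (0.68 ± 0.17, adjusted p = 0.00222). AII alone gave EIF5A 602 to 817 CPM. EGF alone gave it 928 to 1120 CPM, above all control libraries and within the AII + EGF range. The EIF5A call under AII + EGF was lost without AII + EGF 6 h replicate 5 (0.53, adjusted p = 0.0229) or control 6 h replicate 6 (0.61, 0.0137), and where only the near-identical pairs were left out (0.54, 0.0281). AZIN2, the second antizyme inhibitor gene, fell from 8.8 ± 0.52 CPM in control 6 h to 4.86 ± 1.65 CPM under AII + EGF (-0.86 ± 0.18, adjusted p = 3.06e-04), without overlap. Its libraries under AII alone (6.16 to 7.56 CPM) and EGF alone (5.09 to 6.45 CPM) also lay below all control libraries. MRI1 of the methionine salvage pathway, which recycles the methylthioadenosine that polyamine synthesis releases, fell from 36.6 ± 7.88 to 24 ± 2.1 CPM (-0.61 ± 0.16, adjusted p = 0.00336). The MRI1 means under AII alone and EGF alone were 30.2 ± 3.27 and 28.4 ± 1.09 CPM. The MRI1 call was lost without control 6 h replicate 6 (-0.46, adjusted p = 0.0348) or AII + EGF 6 h replicate 1 (-0.60, 0.0103) or 5 (-0.57, 0.0147), with title runs as a block (-0.47, 3.07e-04, under 1.5-fold) and with all 48 libraries (-0.38, 0.0367).

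At 24 h ASS1, which makes argininosuccinate in arginine synthesis, ranged from 36.3 to 85.1 CPM (median 56.9) in control and from 97.0 to 183 CPM (median 123) under AII + EGF, without overlap (1.23 ± 0.19, adjusted p = 1.08e-05). MAT2A, which makes S-adenosylmethionine, ranged from 169 to 380.4 CPM (median 234) in control and from 100.02 to 236 CPM (median 136) under AII + EGF (-0.74 ± 0.18, adjusted p = 0.00288). For ASS1, the 24 h means were 57.3 CPM in control, 65.9 under AII alone and 88.9 under EGF alone. For MAT2A, they were 246, 232 and 188 CPM. The MAT2A call was lost without AII + EGF 24 h replicate 3 (-0.65, adjusted p = 0.0124), 4 (-0.68, 0.0108) or 5 (-0.69, 0.0101) or control 24 h replicate 6 (-0.55, 0.0214), and with only the 2 groups compared in the fit (-0.74, 0.033). In each MAT2A group at 24 h the highest library was replicate 6, as for AMD1.

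**Figure D5:**
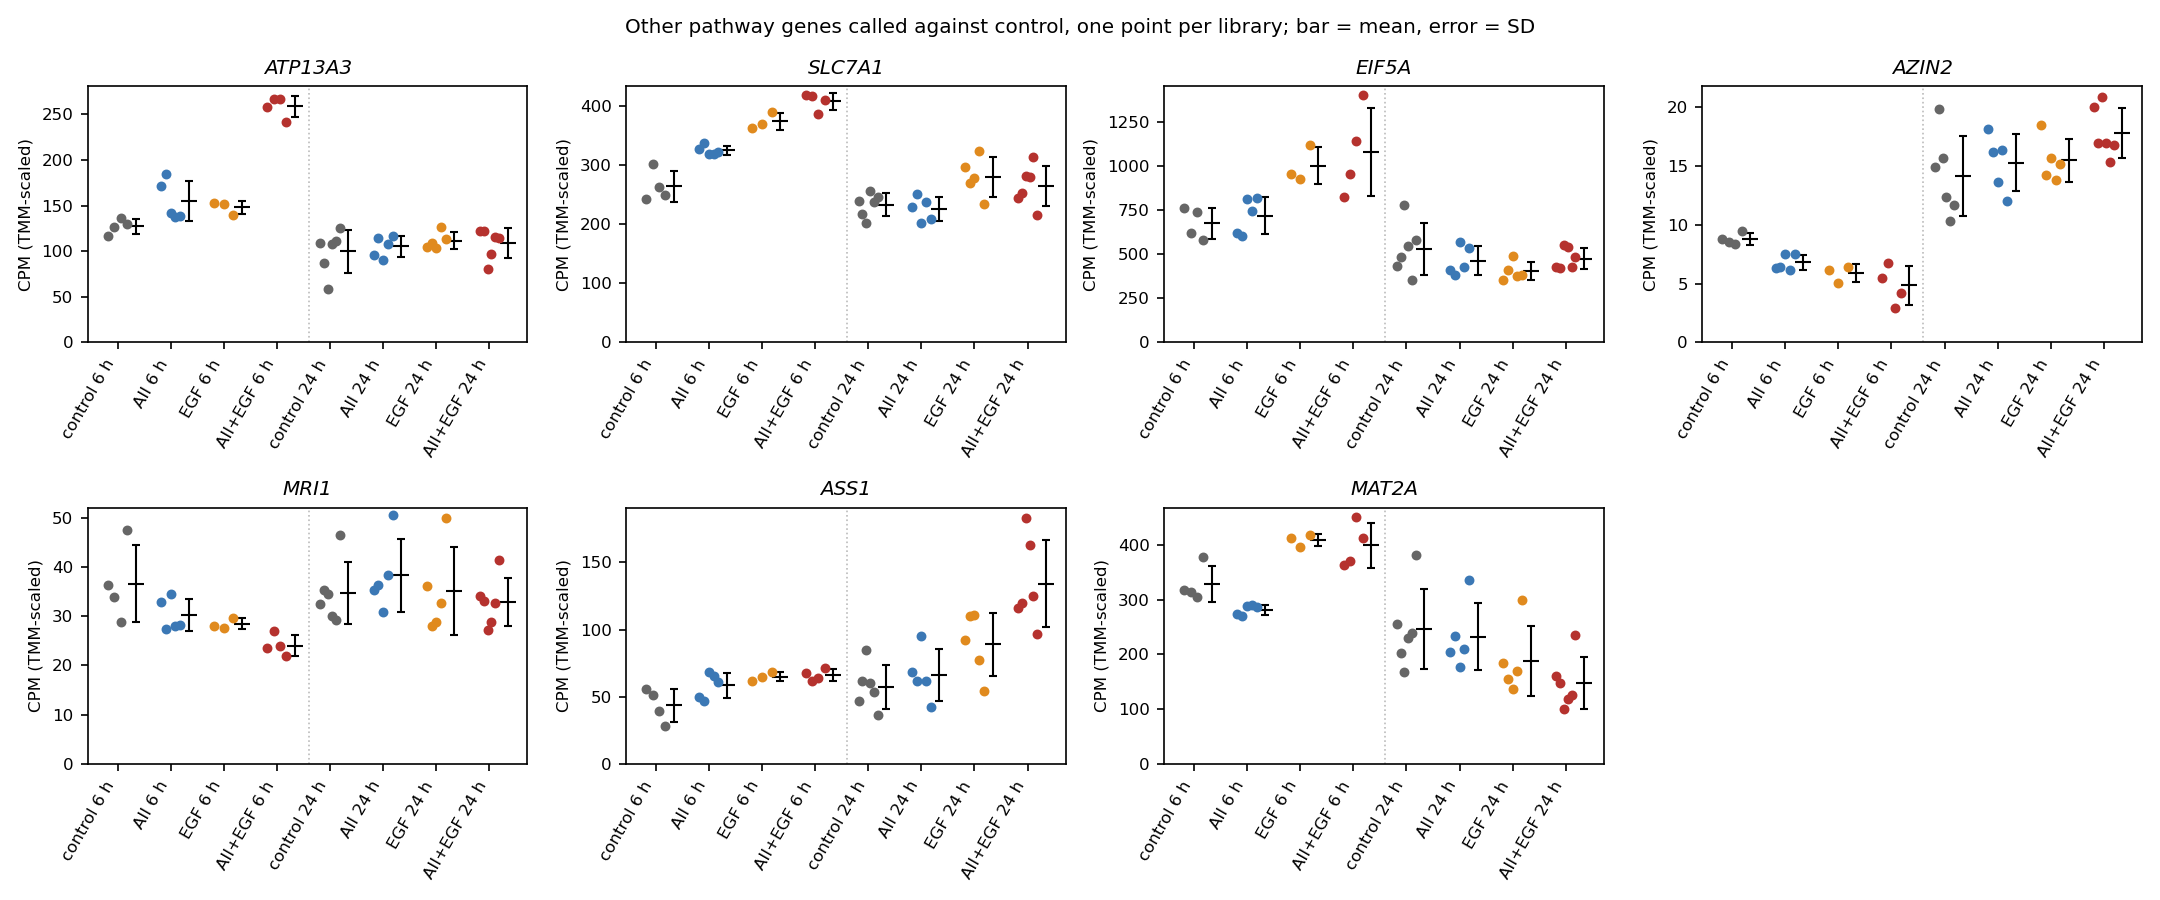
CPM (vertical axes, TMM-scaled) of the 7 other pathway genes called under AII + EGF at 6 h or 24 h, in the 8 groups (horizontal axes), with 1 point per library and the mean ± SD beside the points. ATP13A3, SLC7A1 and EIF5A lie above control and AZIN2 and MRI1 below it at 6 h, and at 24 h ASS1 lies above control, while MAT2A has a lower mean than control with overlapping libraries.

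Among the 11764 tested genes with a mean above 5 CPM, those whose 8 group means followed ODC1 most closely were ETF1, GRSF1 and RCOR1, with Pearson r of 0.997, 0.996 and 0.995 over the group means of log2 CPM and 0.968, 0.956 and 0.865 over the 38 libraries. ETF1, a translation release factor gene, went from 263 CPM in control 6 h to 459.8 CPM under AII + EGF and lay at 210.1 to 218 CPM in the 24 h groups. For SAT1 the closest were ENO2, RAB27A and DOCK6 (r of 0.986, 0.985 and 0.984 over the group means, and 0.941, 0.908 and 0.918 over the libraries). ENO2, the neuronal enolase gene, had means of 9.97 CPM in control 6 h, 33.6 CPM under AII + EGF at 6 h and 67.4 CPM under AII + EGF at 24 h. Within the set, group means of ODC1 had r of 0.945 with SRM, 0.872 with AZIN1, 0.784 with SMOX, 0.752 with AMD1, 0.684 with SMS, 0.517 with OAZ1, -0.196 with SAT1, -0.836 with OAZ2 and -0.853 with PAOX. These are descriptions over 8 means that share libraries, times and treatments.

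Near-identical copies and overlapping transcripts could share reads with some members, since strandedness and the treatment of multi-mapping reads are not stated. Processed pseudogenes of AMD1 and SRM reached at most 0.555 CPM in any library. The divergent and antisense transcripts ODC1-DT and AZIN1-AS1 averaged 3.73 and 1.49 CPM, against 98.4 CPM or more in every group mean of ODC1 and AZIN1.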

How the data were processed

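Poly(A) RNA was sequenced on a NovaSeq6000 with paired ends. Per the labels and the study's methods, HISAT2 2.1.0 mapped the reads to hg38 and featureCounts counted them per Ensembl gene. The deposited values are raw counts. Strandedness and the treatment of multi-mapping reads are not given in the sources used here. Each column was mapped to a sample by its title. Groups were read from the labels, replicates were numbered in order of deposition, and the labels state no pairing. Replicates 5 and 6 of each time each fall in 1 title run, and title runs were tried as a block.

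The members, the other pathway list and the left-out libraries were chosen with earlier results of these data known. The test was that of edgeR 4.0.16 under R 4.3.3 (filterByExpr by group, TMM factors, 1 quasi-likelihood fit over 38 libraries without covariates, Benjamini-Hochberg over all tested genes). In contrasts of 4 groups, the highest of their means had to exceed 5 CPM. Changes are log2 ± SE from this fit, levels are CPM with TMM factors, mean ± SD over libraries. Intervals are 95% intervals of the log2 change. Precision was lowest for PAOX, the member with the fewest counts. The steps were tested on simulated counts of independent libraries. These held no differences between title runs and no duplicated or exchanged libraries, so that test says nothing about such problems. Near-identical libraries were sought over genes with at least 100 counts in a pair.

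All 10 members, those of 36 further genes called against control, MYC, and the 3 genes most like ODC1 and SAT1 in their 8 group means are named. Positions and promoter sequences are from RefSeq, GRCh38.p14, and exon lengths from GENCODE gene models on another build. The alternatives were all 48 libraries, only the near-identical pairs left out, DESeq2 1.42.0, calls by both tools, RLE factors, library totals, the filter of the study (a normalised count of 1 in more than 5 libraries), no filter, 0.05 as the limit of the adjusted p, dropping the fold or the CPM minimum, only the groups compared, title runs as a block, each library left out in turn and, chosen after the values were seen, the 4 replicate 6 libraries of 24 h left out.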

Additional observations from a re-analysis of the deposited data

Results flagged for a closer look

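The gap of 1 library to the rest of its group, relative to the range of the group, was unusually wide in 4 of 70 sets of 4 to 6 libraries, and chance alone gives about 1 in 20. OAZ1 was at 821 CPM and SRM at 128 CPM in control 24 h replicate 3, the highest of their groups. SAT1 was at 65.2 CPM in AII 24 h replicate 6 and at 99.0 CPM in AII + EGF 24 h replicate 6, the lowest of their groups.

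The AII + EGF response differed between 24 h and 6 h for ODC1 (-1.17 on the log2 scale, 416 against 189 CPM at 6 h and 146 against 149 CPM at 24 h) and for OAZ2 (0.81, 84.4 against 114 CPM at 6 h and 149 against 115 CPM at 24 h).

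Some of the libraries left out of the comparisons also showed levels above all 4 used control 6 h libraries, on the CPM scale of all 48 libraries. ODC1 was at 341 CPM in EGF 6 h replicate 1, 338 in EGF 6 h replicate 2, 339 in EGF 6 h replicate 6 and 341 in AII + EGF 6 h replicate 4. In the library labelled AII 6 h replicate 6 it was at 467 CPM, and in the library labelled AII + EGF 6 h replicate 6 at 246 CPM. SRM was at 183, 194, 194 and 183 CPM in the same 4 libraries of near-identical pairs, and at 174 CPM in the library labelled AII 6 h replicate 6. SAT1 was at 91.3, 89.2, 89.5 and 91.7 CPM in these 4 libraries and at 92.5 CPM in the library labelled AII 6 h replicate 6. The left-out library labelled control 6 h replicate 1, itself near-identical to EGF 24 h replicate 2, was higher in SAT1 than all of these with 108 CPM. SAT1 in AII + EGF 6 h replicate 4 and in the library labelled AII 6 h replicate 6 lay below all used AII + EGF 6 h libraries (113 to 120 CPM). In the library labelled AII + EGF 6 h replicate 6, SRM (93.4 CPM) and SAT1 (70.9 CPM) lay within the range of the used control 6 h libraries. The 4 EGF 6 h and AII + EGF 6 h libraries form 2 of the near-identical pairs (EGF 6 h replicate 1 with the AII + EGF library, and EGF 6 h replicates 2 and 6) and are no independent repeats.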

How the results depend on the processing

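No change of the 10 genes or of the 7 further genes turned its direction as a call under the alternatives. Of their values under all alternatives 4234 stayed on the same side of the call, 43 lost it and 36 gained it. Most of the 4234 belong to genes and comparisons without a call in the main fit, PAOX among them. Their number is therefore no measure of how stable the calls are, and the calls that were lost are given beside the results. The count of members called was as follows where it moved by over 1.5 times. With all 48 libraries it was 2 under EGF at 6 h (1 otherwise), 0 for AII + EGF against AII at 6 h (2 otherwise), 1 for AII + EGF against AII at 24 h (0 otherwise) and 0 for control 24 h against 6 h (2 otherwise). With only the near-identical pairs left out it was 0 under EGF at 6 h (ODC1 0.71, adjusted p = 0.101) and 0 for AII + EGF against AII at 6 h. With only the groups compared in the fit it was 0 under AII + EGF at 24 h (SAT1 0.72, adjusted p = 0.0143) and 0 for control 24 h against 6 h. For AII + EGF against AII at 6 h it was 4 with DESeq2 and 4 with title runs as a replicate block, which adds SRM and SMS. For AII + EGF against AII at 24 h it was 1 (SAT1) with DESeq2, RLE factors, no filter, an adjusted p under 0.05 and the 4 replicate 6 libraries of 24 h left out. At an adjusted p under 0.05 it was 1 for the difference of the EGF response between the times (ODC1). Without replicate 6 of 24 h it was 3 for control 24 h against 6 h. Leaving out each library in turn gave 0 to 1 under EGF at 6 h, 2 to 4 for AII + EGF against AII at 6 h, 0 to 1 for AII + EGF against AII at 24 h, 1 to 3 for control 24 h against 6 h, 2 to 4 under AII + EGF at 6 h and 2 to 3 for the difference of the AII + EGF response between the times. The cause was not tested. The labels pair no libraries, and the block changed the call of no other member, but SLC7A1 (0.57) and MRI1 (-0.47) fell below 1.5-fold under AII + EGF at 6 h. Library totals without factors moved the median log2 change of all genes under AII + EGF at 6 h from -0.03 to -0.14, and changes on that scale are relative to it.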
